A study of Ovis aries with 36 samples.

Results

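The 10 genes described here carry out or control the making of fatty acids from small carbon units: FASN, ACACA, SCD, ACLY, ACSS2, AACS, MLXIPL, SREBF1, ELOVL6 and ME1. They were chosen by name, as the loci that carry each symbol, with loci of the same symbol added together. They are 10 of the 21725 named genes that the files of all 3 tissues share. Their RNA was measured in longissimus dorsi (loin) muscle, subcutaneous adipose tissue taken near the shoulder blade and perirenal adipose tissue, the fat around the kidney, of late-gestation sheep fetuses. Polypay ewes bred to a single sire were fed 1 of 3 diets from mid to late gestation: corn (CN), dried corn distillers grains (DG) or hay, which the study describes as alfalfa haylage (HY). RNA of 26 fetuses from 15 ewes was pooled, and each tissue and diet has 4 pools, 2 of females (F1 and F2) and 2 of males (M1 and M2), which makes 36 libraries. Some pools of a diet share ewes and the CN F2 pool is a single fetus, so p-values below measure the spread between these pools and not between independent litters.

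In ruminants the carbon for fatty acid synthesis in fat tissue comes largely from acetate, a product of rumen fermentation, and less from glucose, although the fetus is fed through the placenta and receives mainly glucose, lactate and amino acids. ACSS2 turns acetate into acetyl-CoA in the cytosol, and AACS activates acetoacetate, a ketone body, for lipid synthesis. ACLY splits citrate, which carries carbon from glucose out of the mitochondrion, and MLXIPL (also called ChREBP) is the transcription factor that responds to glucose. ACACA makes malonyl-CoA, the committed step of the pathway, FASN assembles palmitate from it, ELOVL6 lengthens palmitate, SCD adds a double bond, ME1 supplies NADPH, and SREBF1 encodes the sterol and insulin responsive transcription factor SREBP-1.

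Muscle libraries held 13749762 to 29625146 counts, subcutaneous libraries 6705766 to 20272024 and perirenal libraries 7802700 to 15913813. All 10 genes passed the filter on low counts in each tissue, and the fewest reads of any of them in a pool were 20, for SREBF1 in subcutaneous adipose tissue. FASN lies on chromosome 11 at 49940114 to 49955865 of Oar_v3.1 and SREBF1 on the same chromosome at 34176886 to 34192041, as the muscle gene models have them. Each tissue has its own gene models, and their bounds differ. In perirenal adipose tissue FASN runs from 49940242 to 49957630. Levels are given as CPM, read counts scaled to the TMM-adjusted library total, which is not corrected for gene length, so they are compared between samples of 1 gene and never between genes.

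Labels were checked with marker genes, on a scale set over all 36 libraries. The sum of 10 skeletal muscle markers was 100400 to 143200 CPM in muscle and 21.2 to 536 CPM in perirenal adipose tissue, but 703 to 117000 CPM in subcutaneous adipose tissue. The sum of 7 adipocyte markers was 105 to 223 CPM in muscle, reached 2456 to 12850 CPM in subcutaneous adipose tissue and 6734 to 17850 CPM around the kidney. In subcutaneous adipose tissue the adipocyte genes FABP4 and ADIPOQ reached 7486 and 6573 CPM, whereas PLIN1, a coat protein of the lipid droplet, lay at 4.78 to 42.3 CPM against 408 to 1017 CPM in perirenal adipose tissue. The adipocyte transcription factor CEBPA lay at 0.0783 to 4.69 CPM in subcutaneous adipose tissue, lower than in muscle (3.16 to 7.99 CPM; log2 difference -2.22, SE 0.39, FDR = 3.65e-05), and at 171 to 400 CPM in perirenal adipose tissue. UCP1, the defining gene of brown adipocytes, lay at 437 to 1210 CPM in perirenal adipose tissue and at 12.2 to 156 CPM in subcutaneous adipose tissue. Of the other brown adipocyte markers, CIDEA, DIO2 and COX7A1 also had higher medians in perirenal adipose tissue. PPARGC1A (median 4.99 against 27.5 CPM) and ELOVL3 (0.226 against 3.45 CPM) had lower ones. Subcutaneous pools DG F1 and HY F2 had the highest muscle marker sums (on the scale of that tissue, 100900 and 83310 CPM), so subcutaneous results are given with and without them.

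The first question was where in the fetus the pathway is transcribed. All 10 genes were higher in perirenal adipose tissue than in muscle, and 9 were higher in subcutaneous adipose tissue than in muscle, the exception being SREBF1. These tests paired the 12 pools across tissues in 1 fit of 13409 genes, and at FDR ≤0.05 they called all 10 genes in both comparisons, where 80.2% and 72.2% of all genes were called. Since most genes differ between tissues, the number called says little about the pathway, and the sizes are more informative. Summed over the members, CPM lay between 284 and 391 in muscle, between 989.8 and 4115 in subcutaneous and between 1811 and 5241 in perirenal libraries. The median log2 difference of the 10 genes was 2.37 for subcutaneous against muscle and 3.12 for perirenal against muscle. In a bulk tissue, fewer cells of a type and less RNA of a gene per cell cannot be told apart, and the adipocyte marker sums given above moved with these differences; their part in them was not tested.

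**Figure D1:**
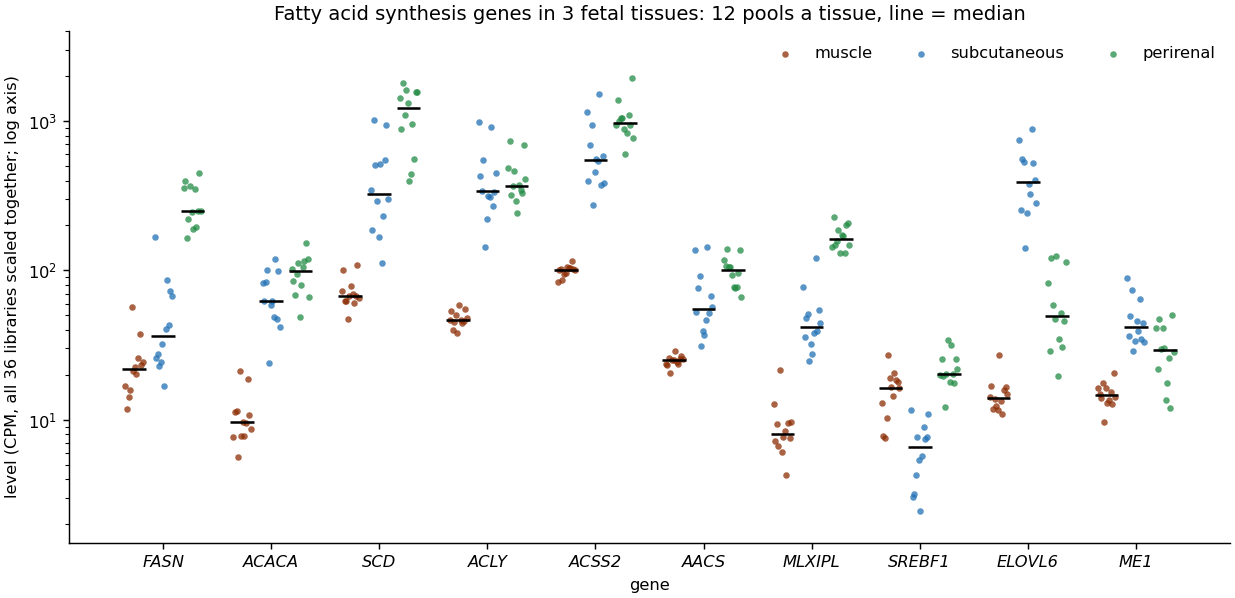
Level of each of the 10 genes in the 12 pools of muscle, subcutaneous adipose and perirenal adipose tissue, in CPM on a log axis, scaled over all 36 libraries; each point is 1 pool and each line a median. SREBF1 is lowest in subcutaneous adipose tissue (median 6.55 CPM), while ELOVL6 is highest there (median 389.9 CPM).

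Among the genes that supply acetyl-CoA, ACSS2 had a median of 101 CPM in muscle (range 84.2 to 116), 549 CPM in subcutaneous (274 to 1531) and 975 CPM in perirenal adipose tissue (602 to 1932). ACSS2 was 6.03-fold higher in subcutaneous and 10.2-fold higher in perirenal adipose tissue than in muscle, and 1.68-fold higher in perirenal than in subcutaneous adipose tissue (log2 difference 0.75, SE 0.20, FDR = 0.00195). AACS was 2.54-fold and 3.95-fold higher than in muscle in the same order, with medians of 25.2, 55.1 and 101 CPM. AACS also differed between the fat depots, by 1.56-fold (FDR = 5.5e-04), and was higher in perirenal adipose tissue in 10 of 12 pools. ACLY was 8.34-fold higher in subcutaneous and 8.62-fold higher in perirenal adipose tissue than in muscle. Between the depots no difference of ACLY was found (log2 difference 0.05, SE 0.19, FDR = 0.841), with 6 pools higher in each direction.

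The 2 transcription factors of the set behaved differently from each other. MLXIPL had medians of 7.999 CPM in muscle, 41.9 CPM in subcutaneous and 164 CPM in perirenal adipose tissue, and the 3 ranges (4.25 to 21.5, 24.6 to 122 and 130 to 228 CPM) did not overlap. Its difference between perirenal adipose tissue and muscle, 19.1-fold, was the largest of the 10 genes in that comparison. The MLXIPL gene model is longer in perirenal adipose tissue (33530942 to 33557507) than in muscle (33537838 to 33557314). The part of this in the difference was not tested. SREBF1 had medians of 16.3 CPM in muscle, 6.55 CPM in subcutaneous and 20.2 CPM in perirenal adipose tissue. SREBF1 was 2.46-fold lower in subcutaneous adipose tissue than in muscle (log2 difference -1.30, SE 0.17, FDR = 6.15e-07) and lower in 12 of 12 pools. In perirenal adipose tissue SREBF1 was 3.64-fold higher than in subcutaneous adipose tissue, without overlap, but only 1.48-fold higher than in muscle (FDR = 0.00357), where 9 of 12 pools were higher.

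FASN was called between the depots and ACACA was not. FASN had a median of 21.9 CPM in muscle (11.8 to 57.1), 36.3 CPM in subcutaneous (16.9 to 168) and 249.6 CPM in perirenal adipose tissue (166 to 449.8). FASN was thus 12.1-fold higher in perirenal adipose tissue than in muscle but 1.92-fold higher in subcutaneous adipose tissue, where 2 of 12 pools lay below their muscle partner. Perirenal adipose tissue had 6.33-fold more FASN than subcutaneous adipose tissue (log2 difference 2.66, SE 0.25, FDR = 5.4e-09), higher in 12 of 12 pools. ACACA, which acts just before FASN, did not follow it: ACACA was 6.38-fold higher in subcutaneous and 8.81-fold higher in perirenal adipose tissue than in muscle, and the depots differed by 1.38-fold, short of the threshold (FDR = 0.0587). ACACA passed it without the pool block, which raised the members called between the depots from 8 to 9.

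The enzymes that finish the fatty acid and the NADPH source went both ways between the depots. ELOVL6 was 26.9-fold higher in subcutaneous adipose tissue than in muscle, the largest difference of the 10 genes in that comparison, and 6.92-fold lower in perirenal than in subcutaneous adipose tissue (log2 difference -2.79, SE 0.32), lower in 12 of 12 pools. ME1 was also lower in perirenal than in subcutaneous adipose tissue, by 1.61-fold (FDR = 0.00194) in 10 of 12 pools. SCD was 2.90-fold higher in perirenal adipose tissue, in 11 of 12 pools, with medians of 67.6, 325 and 1220 CPM in muscle, subcutaneous and perirenal adipose tissue. Between the depots 8 of 10 genes were called, where 67.1% of all genes were. Without the 2 muscle-rich subcutaneous libraries the same numbers of members were called in the 3 comparisons (10, 10 and 8), and the median log2 difference of perirenal against subcutaneous adipose tissue was 0.60 instead of 0.70. CEBPA was 7.96 higher on the log2 scale in perirenal than in subcutaneous adipose tissue. In all, 8 of 10 members shared that direction, and ELOVL6 and ME1 went the other way. Whether base composition or length of the transcripts moved with these differences could not be examined, as no genome was used.

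Genes that work beside the pathway were counted in fixed lists, to be read against the shares of all genes called at FDR ≤0.05 (80.2% in perirenal against muscle, 72.2% in subcutaneous against muscle and 67.1% in perirenal against subcutaneous adipose tissue). In perirenal against muscle, 3 of 5 genes of acetate and ketone body use were higher and none lower at FDR ≤0.05, led by BDH1, the ketone body dehydrogenase (log2 difference 3.25, SE 0.22). Of 9 genes of glucose uptake and pyruvate entry, 2 were higher and 7 lower, among the latter PFKM, the phosphofructokinase of muscle (-6.30). All 6 triglyceride assembly genes were higher in both adipose depots than in muscle, among them DGAT2 (8.89 in perirenal, 8.16 in subcutaneous), which adds the last fatty acid to a triglyceride. Of 11 carriers, NADPH sources and cofactors, 6 were higher and 3 lower in perirenal adipose tissue than in muscle, among them TKT of the pentose phosphate pathway (4.93) and MID1IP1, an activator of acetyl-CoA carboxylase (4.19). MID1IP1 was also 3.99 higher on the log2 scale in perirenal than in subcutaneous adipose tissue (FDR = 4.74e-15). Of 7 tested desaturases and elongases, 1 was higher and 3 lower in perirenal than in subcutaneous adipose tissue, led by ELOVL3 (-3.88), an elongase of long-chain fatty acids. Of 15 regulators, 9 were higher and 4 lower in perirenal than in subcutaneous adipose tissue.

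Acetate and ketone body genes were set against glucose-linked genes by the ratio of CPM within each library, given as a description. AACS acts on a ketone body and MLXIPL is a transcription factor, so their ratio does not measure acetate against glucose use. A ratio of 2 genes also carries their lengths, so only its movement between samples is meaningful. The ratio of ACSS2 to ACLY had a median of 2.01 in muscle (1.81 to 2.54), 1.72 in subcutaneous (0.856 to 2.06) and 2.63 in perirenal adipose tissue (1.87 to 3.20). These ranges overlapped between the tissues. The ratio of AACS to MLXIPL had a median of 3.00 in muscle (1.18 to 5.53), 1.31 in subcutaneous (1.18 to 1.82) and 0.581 in perirenal adipose tissue (0.445 to 0.944). The perirenal range lay below the others, and MLXIPL was 19.1-fold and AACS 3.95-fold higher there than in muscle.

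**Figure D2:**
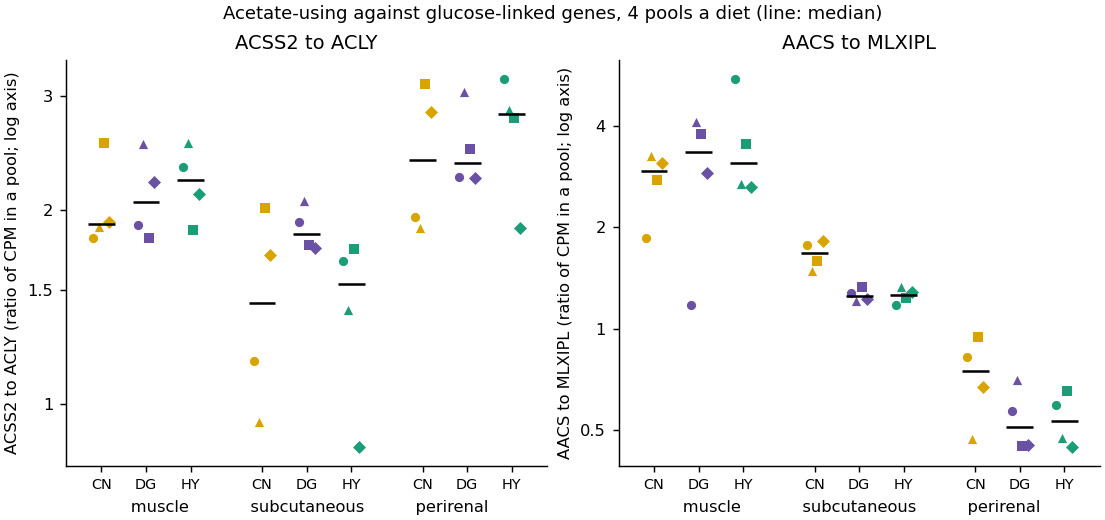
Ratio of ACSS2 to ACLY and of AACS to MLXIPL (CPM over CPM, log axis) in each pool, by tissue and maternal diet, with a line at each median. The ratio of AACS to MLXIPL in the 4 CN pools of subcutaneous adipose tissue (1.49 to 1.82) lies above that of the DG (1.21 to 1.33) and HY pools (1.18 to 1.33).

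The second question was whether the maternal diet changed the pathway within a tissue. Diets were tested in pairs with 4 pools each, the spread came from all 12 pools of the tissue, and the 3 comparisons of a tissue share pools. Levels from here on are on the scale of each tissue alone.

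In muscle, SREBF1 was higher in fetuses of DG and of HY ewes than in those of CN ewes, and it was the only member called at FDR ≤0.05 (edgeR quasi-likelihood test). SREBF1 lay at 9.72, 5.89, 5.67 and 8.001 CPM in the CN pools F1, F2, M1 and M2. In the same order SREBF1 lay at 20.6, 14.4, 12.8 and 11.2 CPM in the DG pools and at 16.0, 14.2, 13.8 and 12.6 CPM in the HY pools. Every DG and HY pool was thus above every CN pool, and DG and HY overlapped. The means were 7.32 ± 1.92 CPM (SD, n = 4) in CN, 14.7 ± 4.10 CPM in DG and 14.1 ± 1.44 CPM in HY. The log2 difference was 1.01 for DG against CN (SE 0.21, FDR = 0.0393) and 0.95 for HY against CN (SE 0.21, FDR = 0.0352). At that threshold 1.03% of 18144 features were called in DG against CN and 2.95% in HY against CN, nearly all of them higher outside CN in the former (179 of 186).

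FASN followed the same order in muscle but was not called at FDR ≤0.05. FASN lay at 12.8, 9.02, 10.8 and 12.2 CPM in the CN pools F1, F2, M1 and M2, at 43.4, 16.2, 17.6 and 15.6 CPM in the DG pools and at 20.2, 28.6, 17.9 and 18.7 CPM in the HY pools. Here too no CN pool reached a DG or HY pool, and 1 DG pool stood far above the others. The log2 difference was 1.05 for DG against CN (SE 0.30, FDR = 0.108) and 0.94 for HY against CN (SE 0.30, FDR = 0.102). At FDR ≤0.20 both SREBF1 and FASN were called in both comparisons, where 7.01% and 15.9% of all features were. Pools did not overlap for 2 members in DG against CN and 3 in HY against CN, the third being ACSS2, and for 8.69% and 12.5% of all features. ACSS2 lay at 63.6 to 76.9 CPM in CN and 78.1 to 89.0 CPM in HY, a log2 difference of 0.20 (SE 0.10, FDR = 0.248).

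**Figure D3:**
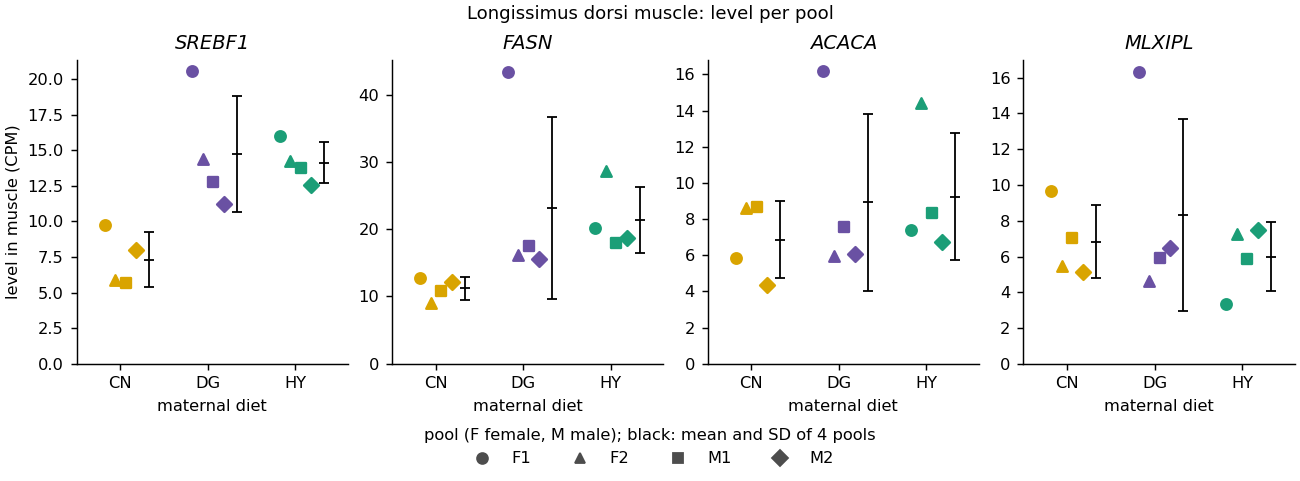
SREBF1, FASN, ACACA and MLXIPL in each muscle pool, in CPM, by maternal diet (CN, DG, HY), with the mean and SD of 4 pools in black beside each diet. SREBF1 and FASN lie higher in every DG and HY pool than in every CN pool, and pool DG F1 is the highest of the 12 for all 4 genes.

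The DG F1 pool decided part of these values. It was the highest of the 12 muscle pools for FASN (43.4 CPM), SREBF1 (20.6 CPM), ACACA (16.2 CPM) and MLXIPL (16.3 CPM). Without it FASN was 0.56 higher on the log2 scale in DG than in CN (FDR = 0.164) and SREBF1 0.81 higher (FDR = 0.0855), so that no member passed FDR ≤0.05 in that comparison. In HY against CN, leaving out DG F1 lowered the spread, and both FASN (FDR = 0.00817) and SREBF1 (FDR = 0.0119) then passed. SREBF1 kept its direction in both comparisons whichever pool was left out (log2 difference 0.81 to 1.18 and 0.85 to 1.12). In DG against CN it passed FDR ≤0.05 only without CN F1 or DG M2, and in HY against CN only without CN F1, CN F2, DG F1, DG M2 or HY M2.

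Adipocyte genes moved among the muscle pools, more closely with FASN than with SREBF1. The sum of ADIPOQ, PLIN1, CIDEC and FABP4 was 5.65, 6.36, 6.24 and 15.3 CPM in CN, 55.1, 10.5, 30.3 and 26.2 CPM in DG, and 5.64, 33.5, 5.24 and 23.97 CPM in HY. All 6 tested adipocyte markers were higher in DG than in CN (median log2 difference 1.66) and none passed FDR ≤0.05 (lowest FDR 0.138), while LEP was at 0 in every muscle pool and LPL, which muscle fibres also make, differed by 0.0066. With the logarithm of the 4-gene sum as a covariate, a fit chosen after the data were seen, SREBF1 was 0.94 higher in DG than in CN (SE 0.27, FDR = 0.384) and 0.92 higher in HY (SE 0.22, FDR = 0.0688), while the differences of FASN were 0.49 (FDR = 0.746) and 0.73 (FDR = 0.170). In that fit 1 feature of all was called in DG against CN and 201 in HY against CN. Pool HY F1, with a marker sum of 5.64 CPM, had 16.0 CPM of SREBF1 and 20.2 CPM of FASN, both above every CN pool. The sum of 3 endothelial markers also moved with the diets in muscle, at 399 to 472 CPM in CN, 427 to 613 CPM in DG and 473.5 to 588 CPM in HY, so that HY did not overlap CN, and its part in the differences of SREBF1 and FASN was not tested. Over the 12 pools, after removal of the diet means, the 4-gene adipocyte sum correlated with FASN at r = 0.58 and with SREBF1 at r = 0.12, as a description. The sum of 7 adipocyte markers, which includes LPL, correlated with FASN at 0.64 and with SREBF1 at 0.54.

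The other 8 members showed no diet difference in muscle at FDR ≤0.20. Over all 10 the median log2 difference was 0.18 in DG against CN, 0.11 in HY against CN and 0.0053 in DG against HY, beside -0.0033, -0.018 and 0.014 over all features. ACLY (29.1 to 45.4 CPM over 12 pools), AACS (16.0 to 22.4 CPM) and ACSS2 (63.6 to 89.0 CPM) varied least, with an SD of log2 CPM within diets of 0.20, 0.10 and 0.11. MLXIPL varied most (SD 0.60). No member and no feature was called between DG and HY in muscle at either threshold, and no member reached an unadjusted p of 0.05, as 2.19% of all features did.

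In the fixed lists, MID1IP1, the carboxylase activator named above, was called in muscle in both comparisons, from 1.58 ± 0.31 CPM in CN (SD, n = 4) to 3.81 ± 1.35 CPM in DG (log2 difference 1.26, FDR = 0.0421) and 3.42 ± 0.60 CPM in HY (1.101, FDR = 0.0464). It was the only one of 11 carriers, NADPH sources and cofactors called at FDR ≤0.05, where 1.03% of all features were called in DG against CN and 2.95% in HY against CN. In HY against CN, 1 of 6 desaturases and elongases, FADS2 (0.59, FDR = 0.0474), 1 of 15 regulators, MLXIP, a glucose-sensing relative of MLXIPL (1.54, FDR = 0.0496), and 1 of 9 glucose genes, the hexokinase HK1 (0.45, FDR = 0.0421), were higher. None of 5 acetate and ketone body genes was called at that threshold, the nearest being OXCT1, which starts the use of ketone bodies for energy (0.67, FDR = 0.0673), and none of the 5 tested triglyceride genes was. At FDR ≤0.20, which 7.01% of all features passed in DG against CN, 2 of 5 triglyceride genes were higher in DG, AGPAT2 (0.79, FDR = 0.0885) and DGAT2 (1.23, FDR = 0.184), as were 3 of 9 glucose genes, PFKL (0.84, FDR = 0.0623), HK1 (0.34, FDR = 0.143) and HK2 (1.20, FDR = 0.187). OXCT1 (0.61, FDR = 0.135) was the only acetate and ketone body gene, FADS2 (0.46, FDR = 0.152) the only one of 6 desaturases and elongases, and MLXIP (1.20, FDR = 0.159) and NR1H2, the nuclear receptor LXR-beta (0.40, FDR = 0.171), were 2 of 15 regulators that passed it. In HY against CN, where 15.9% of all features passed FDR ≤0.20, 5 of 9 glucose genes, 3 of 15 regulators, 2 of 11 carriers and cofactors, 2 of 5 acetate and ketone body genes, 1 of 6 desaturases and elongases and no triglyceride gene were higher. No gene of these lists was lower at FDR ≤0.20 in either comparison.

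In subcutaneous adipose tissue, all 10 members had lower means in DG than in CN and than in HY, but none passed FDR ≤0.05 and no feature of 17737 did in any of the 3 comparisons. AACS, which brings ketone body carbon into lipid synthesis, was lowest in DG. AACS lay at 121, 45.3, 65.7 and 81.2 CPM in CN, at 27.1, 33.6, 31.6 and 39.1 CPM in DG and at 117.5, 44.1, 57.9 and 50.0 CPM in HY, in the order F1, F2, M1, M2. Every DG pool was below every CN and HY pool. The log2 difference was -1.25 against CN (SE 0.34, unadjusted p = 0.00277, FDR = 0.258) and -1.04 against HY (SE 0.34, FDR = 0.158).

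MLXIPL lay at 68.2, 30.5, 41.4 and 44.6 CPM in CN, at 21.2, 27.7, 23.7 and 31.9 CPM in DG and at 99.6, 33.3, 46.9 and 38.9 CPM in HY. The DG pools were all below the HY pools, while DG M2 exceeded CN F2. The log2 difference was -1.06 against HY (SE 0.34, FDR = 0.155) and -0.82 against CN (SE 0.34, FDR = 0.306). At FDR ≤0.20, AACS and MLXIPL were the 2 members called in DG against HY, where 10.9% of all features were called, and no member and no feature was called in DG against CN.

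ACLY lay at 878, 366, 294 and 484 CPM in CN, 124, 189.5, 270.4 and 262 CPM in DG, and 751, 227, 291 and 394 CPM in HY. The DG pools of ACLY were below all CN pools (log2 difference -1.26, SE 0.43, FDR = 0.272) and overlapped those of HY. FASN lay at 149, 22.1, 23.6 and 20.04 CPM in CN, 21.2, 27.5, 14.5 and 34.1 CPM in DG, and 70.7, 36.6, 62.8 and 58.9 CPM in HY. All 4 HY pools of FASN were above all DG pools (log2 difference -1.23 for DG against HY, SE 0.62, FDR = 0.313), and the CN mean of 53.6 ± 63.4 CPM (SD, n = 4) rested on the F1 pool. Pools did not overlap for 2 members (ACLY and AACS) in DG against CN, for none in HY against CN and for 3 (FASN, AACS and MLXIPL) in DG against HY, beside 6.8%, 2.82% and 9.22% of all features.

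**Figure D4:**
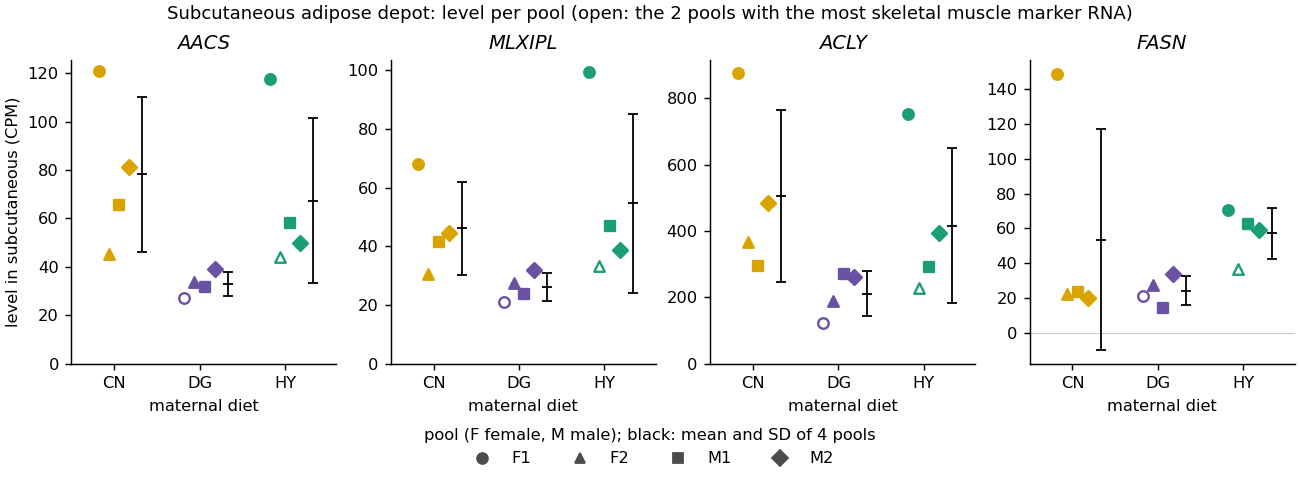
AACS, MLXIPL, ACLY and FASN in each subcutaneous adipose pool, in CPM, by maternal diet, with the mean and SD of 4 pools in black; open symbols mark the 2 pools with the most skeletal muscle marker RNA (DG F1 and HY F2). The 4 DG pools of AACS (27.1 to 39.1 CPM) lie below all CN and HY pools, and FASN has 1 high CN pool (149 CPM).

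The remaining members had the same sign and wider overlap. In DG against CN the log2 differences were -0.98 for ELOVL6, -0.95 for SCD, -0.83 for ACSS2, -0.79 for ACACA, -0.78 for ME1 and -0.11 for SREBF1, with FDR of 0.278 to 0.913. In DG against HY they ranged from -0.93 (ELOVL6) to -0.25 (ME1). The median over the 10 members was -0.89 in DG against CN, -0.92 in DG against HY and -0.093 in HY against CN, beside medians over all features of -0.0075, 0.0024 and -0.024. An unadjusted p under 0.05 was reached by 6, 4 and 0 members, and by 14.97%, 18.16% and 4.381% of all features. The members are not 10 separate pieces of evidence, since after removal of the diet means they moved together over the 12 pools: 38 of 45 pairs correlated positively, with a median r of 0.64, against 34 and 0.32 in perirenal adipose tissue and 24 and 0.096 in muscle. All genes of 1 pool are read from the same library, with its own depth and cell makeup, and the part of these in the shared movement was not tested.

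The calls depended on single pools, and for some pools so did the size of the difference. Without CN F1, the pool highest for FASN (149 CPM) and ACLY (878 CPM), FASN was 0.17 higher in DG than in CN and SREBF1 0.61 higher, AACS was 0.95 lower in DG (log2 difference -0.95, FDR = 0.199), and FASN was 1.43 higher in HY than in CN (FDR = 0.107). The difference between DG and HY did not rest on that pool: without it FASN was at -1.27 (FDR = 0.107), AACS at -1.08 (FDR = 0.138) and MLXIPL at -1.103 (FDR = 0.1402). Without HY F1, the pool highest for MLXIPL and ACSS2, AACS was at -0.63 (FDR = 0.406) and MLXIPL at -0.60 (FDR = 0.401) in DG against HY, and no member passed FDR ≤0.20. No member passed without DG F1, DG F2, DG M2, HY M1 or HY M2 either, but there the differences were about as large as with all pools, between -0.93 and -1.19 for AACS and between -0.95 and -1.23 for MLXIPL, and at most 1 feature of all passed FDR ≤0.20 in these fits except without DG F1 (1492 features). Without CN F1, DG M1 or HY F2, 4 members passed. So did 2130, 4046 and 5431 features of all in these fits, against 1938 (10.9%) with all pools. In DG against CN 6 members passed FDR ≤0.20 without DG M1, 2 without HY F2 and 1 without CN F1. The number of all features past FDR ≤0.20 in those DG against CN fits is not given here.

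Markers of other cells also moved among these pools. The skeletal muscle marker sum was 13910, 41600, 2288 and 6510 CPM in CN, 100900, 35040, 653 and 50650 CPM in DG, and 576, 83310, 2152 and 13760 CPM in HY, overlapping between diets (exact permutation test, two-sided, p = 0.486 to 0.714 for the 3 pairs, smallest possible 0.0286). Over the 12 pools, after removal of diet means, it correlated at -0.77 with ACACA, -0.67 with ACSS2 and 0.42 with SREBF1. The adipocyte marker sum had a median of 6804 CPM in CN (2150 to 11080), 3419 CPM in DG (2118 to 7000) and 6260 CPM in HY (3539 to 10570), and all 7 markers had lower means in DG than in both other diets (exact permutation test of the sum, p = 0.314 and 0.257). The sum of 4 macrophage and leukocyte markers was 9.81 to 12.99 CPM in DG, below all CN pools (14.2 to 20.5 CPM) and overlapping only the lowest HY pool (12.5 to 25.1 CPM). The sum of 6 brown adipocyte markers was 229 to 292 CPM in DG against 242 to 417 CPM in CN and 288 to 469 CPM in HY (exact permutation test, p = 0.114 and 0.0857). On the scale of all libraries COX7A1 had a median of 194 CPM in this tissue, beside 341 CPM for the sum, and was highest in muscle (504 CPM). The part of these markers in the lower levels of the members in DG was not tested.

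Each result was therefore also given with the muscle or the adipocyte markers taken into account. No fit took the macrophage and leukocyte or the brown adipocyte markers into account. Without the 2 muscle-rich pools all 10 members stayed lower in DG than in CN (median -0.74, lowest FDR 0.2995) and than in HY (median -1.01). Against HY, AACS (FDR = 0.127), MLXIPL (FDR = 0.114) and ACLY (FDR = 0.194) passed FDR ≤0.20, as did 3659 features of all, against 1938 with all pools. With the muscle marker sum as a covariate the median was -0.75 against CN. There AACS (FDR = 0.0957), ACLY (FDR = 0.137), ME1 (FDR = 0.159) and ACACA (FDR = 0.180) passed FDR ≤0.20, and the number of all features that did is not given here. Against HY the median was -0.775 and no member passed (lowest FDR 0.206), while 2373 features of all did. With the adipocyte marker sum as a covariate the medians were -0.54 and -0.66, and no member passed FDR ≤0.20 in either (lowest FDR 0.440 and 0.353). AACS then stayed at -0.98 against CN and ACLY at -1.08, whereas SCD moved from -0.95 to -0.32 and ACSS2 against HY from -0.63 to -0.094.

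**Figure D5:**
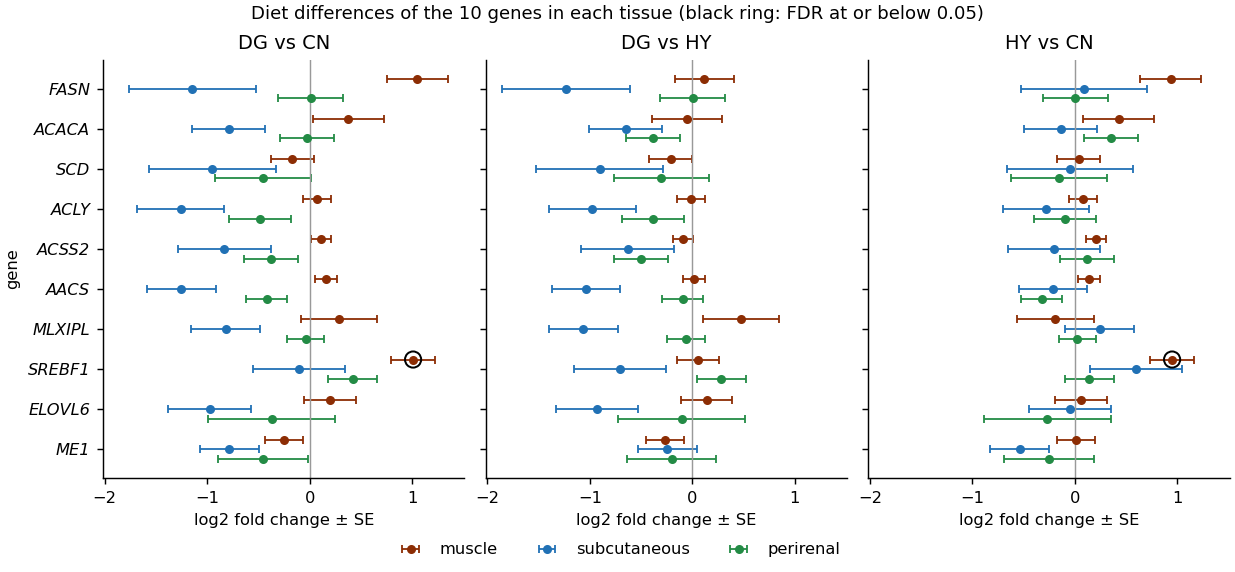
Log2 difference of each of the 10 genes between maternal diets (DG against CN, HY against CN, DG against HY) in muscle, subcutaneous and perirenal adipose tissue, with SE bars from the edgeR fit; rings mark FDR ≤0.05. In subcutaneous adipose tissue all 10 genes lie below 0 in DG against CN and in DG against HY, and the rings mark SREBF1 in muscle.

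Genes beside the pathway in subcutaneous adipose tissue were called only at FDR ≤0.20 and only in DG against HY. There, where 10.9% of all features passed, 3 of 6 triglyceride assembly genes were lower and none higher: DGAT1 (-1.90, FDR = 0.115), AGPAT2 (-1.62, FDR = 0.155) and PNPLA3 (-1.19, FDR = 0.159). TALDO1 (-1.003) and PGD (-0.71) of the pentose phosphate pathway, which supplies NADPH, were lower among 12 carriers and cofactors. Of 9 glucose genes, PC, pyruvate carboxylase, was lower (-1.45, FDR = 0.187), and of 15 regulators INSIG1, which holds SREBP in the endoplasmic reticulum, was lower (-0.71) and PRKAB2, a subunit of the energy sensor AMPK, higher (1.12). OXCT1 was the only one of 5 acetate and ketone body genes called and was higher in DG (0.53, FDR = 0.176), the opposite sign to AACS.

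In perirenal adipose tissue no member was called in any diet comparison at either threshold (1.64% of 17914 features were in DG against CN at FDR ≤0.20), no pools were separated for any member (6.51%, 1.61% and 5.53% of them were), and no member reached an unadjusted p of 0.05, as 9.86%, 2.34% and 9.98% of features did. AACS came nearest in DG against CN. It lay at 116.8, 102, 131 and 105 CPM in CN, 102.6, 89.9, 74.3 and 72.9 CPM in DG and 76.2, 88.9, 134 and 63.9 CPM in HY. A single DG pool overlapped CN, and the log2 difference was -0.42 (SE 0.20, FDR = 0.513). ACSS2 was lowest in DG as well, at 1012, 866, 581 and 791 CPM against 931, 1318, 953 and 1028 CPM in CN, with a log2 difference of -0.38 (SE 0.27, FDR = 0.704).

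FASN did not separate the diets in perirenal adipose tissue: it lay at 350.2, 376, 157 and 217.5 CPM in CN, at 356, 237, 182 and 333.5 CPM in DG and at 192, 232, 439.9 and 242 CPM in HY. Its log2 difference was 0.011 in DG against CN and 0.0053 in HY against CN (SE 0.32 in both), so with 4 pools a diet a difference of this order was not detectable. The medians over the 10 members were -0.38 in DG against CN, -0.046 in HY against CN and -0.15 in DG against HY. In DG against CN 8 members had lower means in DG, and SREBF1 (0.42, FDR = 0.618) had a higher one. SCD (385 to 1692 CPM) and ELOVL6 (18.9 to 121 CPM) varied most, with an SD of log2 CPM within diets of 0.79 and 0.95. Of the fixed lists only PFKL, the liver type of phosphofructokinase, passed FDR ≤0.20, higher in DG than in CN (0.65, FDR = 0.187).

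Whether the diet differences themselves differed between tissues was tested in the fit of all 36 libraries. No member was called at FDR ≤0.05 in any of the 9 such tests, nor was any feature in 6 of them. For DG against HY, perirenal minus subcutaneous, AACS (log2 difference of differences 0.91, SE 0.36, FDR = 0.118), SREBF1 (1.05, SE 0.42, FDR = 0.121) and FASN (1.25, SE 0.57, FDR = 0.178) passed FDR ≤0.20, where 24.5% of 13409 features did and 6.24% passed FDR ≤0.05. For DG against HY, subcutaneous minus muscle, AACS (-1.01, SE 0.36, FDR = 0.156) and MLXIPL (-1.38, SE 0.54, FDR = 0.186) passed FDR ≤0.20, as did 11.2% of features. For DG against CN, subcutaneous minus muscle, the members had a median of -0.995 and AACS stood at -1.32 (SE 0.36, unadjusted p = 0.00132, FDR = 0.390), with 0.00746% of all features past FDR ≤0.05 there and 0.0149% for perirenal minus subcutaneous. The rise of SREBF1 in muscle outside CN was thus not shown to differ from its change in the depots: HY against CN, perirenal minus muscle, gave -0.84 (SE 0.41, FDR = 0.765). Leaving out single pools moved the members past FDR ≤0.20 between 0 and 4 in both DG against HY tests, and SREBF1 passed FDR ≤0.05 (1.34, FDR = 0.0438) without pool DG F1 in perirenal minus subcutaneous. The shares of all features called in those fits are not given here, so these calls cannot be read as particular to the members.

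The ratios of ACSS2 to ACLY and of AACS to MLXIPL separated some diets in subcutaneous adipose tissue, though not the same ones, and none elsewhere. In subcutaneous adipose tissue the ratio of AACS to MLXIPL was higher in all 4 CN pools (1.49 to 1.82) than in the DG (1.21 to 1.33) and HY pools (1.18 to 1.33), and the ratio of ACSS2 to ACLY was higher in all 4 DG pools (1.744 to 2.062) than in the HY pools (0.8556 to 1.736), by a narrow margin, while the CN pools spanned 0.936 to 2.02 and overlapped both. These separations were noticed in the data and not tested, and the share of other gene pairs that separate diets is not given here. In muscle and perirenal adipose tissue both ratios overlapped between all diets.

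The sexes were also compared, in a fit that held diet constant. No member differed between female and male pools at FDR ≤0.05 in muscle, subcutaneous or perirenal adipose tissue (lowest FDR 0.938, 0.368 and 0.9997), and 0%, 0% and 0.0223% of all features did at FDR ≤0.05.

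Among 10247 named genes over the 24 adipose pools, after removal of depot means, the genes whose level followed FASN most closely outside the members included KLHL25 (r = 0.84), PC (0.823), TMEM150A (0.782), PNPLA2 (0.76), SLC25A1 (0.745), AGPAT2 (0.743), RAC3 (0.742), TOMM34 (0.74) and ZNF500 (0.738). PC and SLC25A1, the mitochondrial citrate carrier, act in the supply of citrate, and PNPLA2 breaks triglycerides down. Of the members, SREBF1 ranked 6 (r = 0.75), MLXIPL 18 (0.72) and ACLY 48 (0.68), while ACACA ranked 1613 (0.32), ELOVL6 2450 (0.23) and SCD 4702 (0.021). PNPLA2 followed FASN over the 12 subcutaneous pools (0.89) but not over the 12 perirenal pools (0.077), where ELOVL6 had the opposite sign (-0.20). Of the genes named outside the members, all but TOMM34 (0.797 and 0.834) followed FASN more closely in subcutaneous than in perirenal pools. For SREBF1 the values were 0.834 and 0.431. Diet means were not removed, and the part of subcutaneous pool CN F1 (149 CPM of FASN) was not tested.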

How the data were processed

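The authors deposited 1 table of read counts per merged locus for each of the 36 libraries, without normalization; TopHat2 2.0.4, Cufflinks 2.1.1 and HTSeq are named in the submitters' processing notes, with the build Oar_v3.1. Strand and multi-mapped reads in the counting are not given in the sources used here. Because each tissue has its own locus numbers, counts were summed by gene name. Features were filtered with filterByExpr (minimum count 10, minimum total 15), scaled by TMM and tested with the quasi-likelihood test of edgeR 4.0.16 in R 4.3.3 with limma 3.58.1, with Benjamini-Hochberg adjustment over all features and thresholds of FDR 0.05 and 0.20. Diets were compared within tissues. Tissues, and differences of diet effects between them, were tested in 1 joint model in which pool was a block, since the study lists 1 set of pools for the 3 tissues. Deviations of the same pool in 2 tissues had a mean correlation of 0.0851 (lowest -0.202) over 36 pairs. Alternatives included DESeq2 1.42.0, and each pool was left out in turn. The covariate of adipocyte markers in either tissue and the removal of 2 muscle-rich pools were added after the data were seen. Named genes are the members and, of each fixed list, at most the 3 largest changes past FDR 0.05 (0.20 where none passed). The members and lists were chosen with earlier results of these data known. Tests were checked on simulated data. Other steps used scipy 1.17.1, matplotlib 3.10.9, pandas 2.3.3 and numpy 2.4.6 under Python 3.11.15. Among the genes most like FASN, 1 is not reported here.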

Additional observations from a re-analysis of the deposited data

Results flagged for a closer look

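In 8 of 90 groups of 4 pools (8.89%) 1 pool stood apart from the other 3 by Dixon's criterion. That criterion flags about 1 in 20 groups of normally distributed values by chance. It was applied to CPM without a logarithm, and pool DG F1 supplied several of the flags, so no excess over chance can be read from the share. In muscle, pool DG F1 was far above the other DG pools for FASN (43.4 CPM against 15.6 to 17.6), ACACA (16.2 against 5.97 to 7.55) and MLXIPL (16.3 against 4.65 to 6.49). Pool DG M1 was above the other DG muscle pools for AACS (22.4 against 18.8 to 19.2 CPM) and ELOVL6 (21.0 against 8.90 to 10.4 CPM), and HY M1 above the other HY muscle pools for SCD (84.1 against 47.6 to 51.6 CPM). In subcutaneous adipose tissue, CN F1 was above the other CN pools for FASN (149 against 20.04 to 23.6 CPM) and SREBF1 (10.3 against 2.62 to 3.75 CPM).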

How the results depend on the processing

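The members called in muscle depended on the test. In DG against CN, 1 member passed FDR 0.05, as did 186 features of all. The likelihood-ratio test and DESeq2 each gave 2 members, beside 614 and 690 features. Fits of only the 8 pools compared or with the adipocyte marker covariate without LPL gave 0 members, beside 2 features and 1 feature. In HY against CN, 1 member passed, as did 536 features. The likelihood-ratio test, DESeq2 and the 8 pools gave 2 members, beside 1141, 1400 and 364 features. The covariate gave 0 members, beside 201 features. Leaving out 1 pool gave 0 to 1 member in DG against CN, beside 9 to 346 features, and 0 to 2 in HY against CN, beside 30 to 1248 features. In subcutaneous adipose tissue DESeq2 called 1 member in DG against CN (AACS, FDR = 0.0444) and 1 in DG against HY (MLXIPL, FDR = 0.0498) where the quasi-likelihood test called 0. In DG against HY DESeq2 called 924 features of all, where the quasi-likelihood test called 0. For DG against HY, perirenal minus subcutaneous, leaving out 1 pool gave 0 to 1 member at FDR 0.05. The share of all features was 6.24% with all pools and is not given here for those fits. With pool number as a replicate block, SREBF1 in muscle stayed called in DG against CN (FDR = 0.0307) and HY against CN (FDR = 0.0270). Subcutaneous members past FDR 0.20 went from 0 to 1 in DG against CN and from 2 to 3 in DG against HY. In DG against HY the features of all past FDR 0.20 went from 1938 to 3706. Pools with the same label (F1, F2, M1 or M2) in different diets share fetal sex but no ewe, so this block also holds sex constant. Deviations of same-labelled pools had a mean correlation of 0.191 for subcutaneous (lowest -0.417), 0.0546 for perirenal (lowest -0.0521) and -0.0444 for muscle libraries (lowest -0.326). Pools with different labels had means of -0.0676, -0.0181 and 0.0168, given by tissue as before. Without the filter on low counts 0 subcutaneous members passed FDR 0.20 in DG against HY, while 673 features of all did. RLE size factors changed no count. Covariates also moved ACACA in subcutaneous DG against HY to -0.22 and ACSS2 to -0.16. The causes were not tested. Depth leaves SREBF1 in subcutaneous adipose tissue at 20 to 166 reads a pool.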
